A study of Macaca fascicularis with 80 samples.

Results

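The 200 genes described here were chosen by their course in the blood of 8 cynomolgus macaques: close to baseline on day 1 and low on days 17 and 21. Of 38550 genes in the count table, 9939 had a mean of at least 5 CPM (counts scaled to a library total of 1000000) over the 80 libraries and were kept. Their values were log2(CPM + 1) minus the median of all kept genes in the same library, which is the scale of every log2 level and difference below unless edgeR is named. The day means over 8 animals then selected genes that differed from day 0 by less than 0.15 on day 1 and lay at -0.4 or below on both day 17 and day 21. These thresholds were met by 590 genes, and the 200 with the lowest larger value of the 2 late differences were taken. The values of days 0, 1, 17 and 21 therefore chose the genes by their course and are given below without a test. All other days entered the choice only through the limit of 5 on mean CPM, which was taken over the 80 libraries.

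Each of 4 females and 4 males gave whole blood on days 0, 1, 3, 4, 7, 8, 10, 14, 17 and 21, with 1 RNA sequencing library per animal and day. IL-15/IL-15Ra, in which the cytokine interleukin 15 is bound to the alpha chain of its receptor, was given to all animals in rising doses. Day 0 brought 5 µg/kg, the dose of day 3 was 10 µg/kg, and that of day 7 was 15 µg/kg. Day 0 carries a dose of 0 in the labels and is the only baseline, and undosed animals were not analysed. Days 1 and 3 are labelled 5 µg/kg, days 4 and 7 are labelled 10 µg/kg, and days 8 to 21 are labelled 15 µg/kg. Days 3 and 7 were read as taken before that day's dose, which the labels do not state. The animals' ages were not given in the sources used here.

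Interleukin 15 signals through the interleukin 2 receptor beta chain and the common gamma chain, which activate JAK1, JAK3 and STAT5. It sustains natural killer cells and memory CD8 T cells, and the alpha chain presents it to neighbouring cells. Whole blood RNA mixes neutrophils, monocytes, lymphocytes, platelets and young red cells, whose proportions can change within hours. In such bulk samples, fewer cells of a type and less RNA per cell cannot be told apart.

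The files list genes by identifier and do not pair them with names, and 0 of the 38550 identifiers were found in the gene table at hand. The 200 genes are therefore described as a group, with 4 identifiers as examples, and the cell types that express them were not analysed. Marker genes of whole blood could not be looked up for the same reason. Levels were not compared between genes, since gene lengths are not in the table.

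Library totals ran from 17.1 M to 80.2 M counts (1 M is 1000000), with a median of 24.3 M. The 8 libraries with more than 40 M counts were 1 of day 7, 3 of day 8 and 4 of day 10. Column names give 71 libraries the same tag, while 3 of day 10 and 5 of day 14 share another tag and 1 of day 7 has a tag of its own. The column names do not explain the tags. The 10 most abundant genes of a library took a mean of 6.87% ± 0.61 (SD, n = 8) of counts on day 0, 8.97% ± 1.17 on day 8 and 9.17% ± 1.30 on day 14. The part of depth, tags and abundant genes in the results was not tested, apart from the fits without such libraries given below.

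A level near baseline on day 1 and a low one late describe only the days that chose the genes. On the days between, the group mean stood below day 0 before a dose and nearer to it or above it on the day after. Relative to day 0 it stood at -0.03 ± 0.28 (SD, n = 8 animals) on day 1 and -0.39 ± 0.43 on day 3, and at 0.11 ± 0.90 on day 4, 24 h after the second dose. It stood at -0.62 ± 0.54 on day 7 and 0.53 ± 0.95 on day 8, 24 h after the third dose. The later values were -0.37 ± 0.62 (day 10), 0.05 ± 1.05 (day 14), -0.84 ± 0.46 (day 17) and -0.89 ± 0.37 (day 21). Ordered by mean, day 8 was highest, followed by days 4, 14, 0, 1, 10, 3, 7, 17 and 21. All neighbours in this order differed by less than the larger of their SDs between animals. Every difference from day 0 shares the day 0 libraries with the choice of the genes, so these are values without a test.

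**Figure D1:**
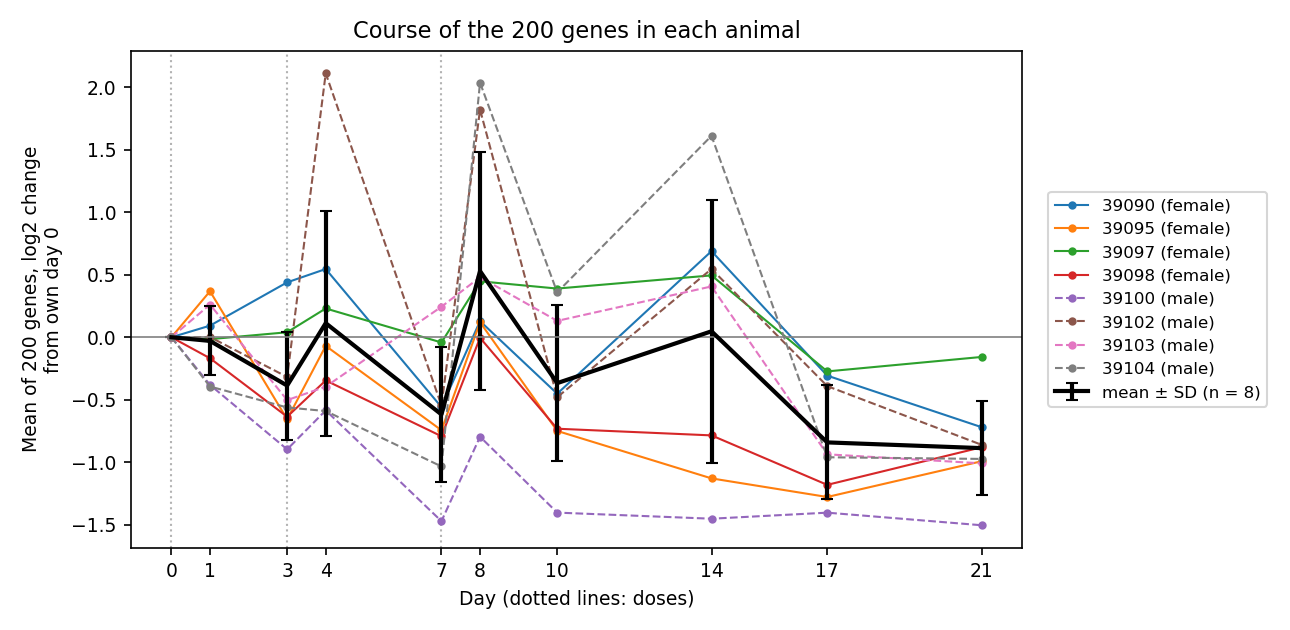
Mean log2 change of the 200 genes from the animal's own day 0 (y axis) by day (x axis), with 1 thin line per animal, dashed for males, and the mean ± SD of 8 animals in black. The mean is -0.62 on day 7, 0.53 on day 8 and -0.89 on day 21, and animals 39102 and 39104 reach 2.11 (day 4) and 2.04 (day 8).

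Animals differed widely around these means. On day 1 the mean of the 200 genes ranged from -0.39 in animal 39104 to 0.37 in animal 39095, with 4 animals above and 4 below their own day 0. The day 1 limit thus held for the average of 8 animals and not in each of them. On day 4 animal 39102 stood at 2.11, while the next animal stood at 0.55. On day 8 animals 39104 and 39102 stood at 2.04 and 1.82, and the remaining 6 lay between -0.80 and 0.48. Animals 39104, 39102 and 39103 (0.48) had the only day 8 libraries over 40 M counts, so depth and animal cannot be told apart there. On day 14 the range was -1.45 (animal 39100) to 1.61 (animal 39104), the widest of all days. On days 17 and 21 all 8 animals lay below their own day 0, from -1.40 to -0.27 and from -1.50 to -0.16.

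The same course appeared in the plain share of counts, which uses neither centring nor a log scale. The 200 genes took a mean of 5.40% ± 1.44 (SD, n = 8) of all counts on day 0 and 5.32% ± 1.68 on day 1. Days 3 and 4 gave 4.36% ± 1.56 and 5.98% ± 2.92, and days 7 and 8 gave 4.01% ± 1.99 and 7.50% ± 2.90. Days 10 and 14 gave 4.53% ± 1.66 and 6.21% ± 2.97, and days 17 and 21 gave 3.24% ± 0.94 and 3.13% ± 0.97. The lowest library was animal 39104 on day 17, at 1.91%, and the highest animal 39102 on day 4, at 12.3%. Late libraries ran from 1.91% to 4.80% on day 17 and from 1.99% to 4.81% on day 21, and overlapped with the 3.45% to 7.61% of day 0. The library median used for centring moved the other way, with a mean of 5.17 log2(CPM + 1) on day 0, 4.90 on day 8 and 5.27 on day 17.

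**Figure D2:**
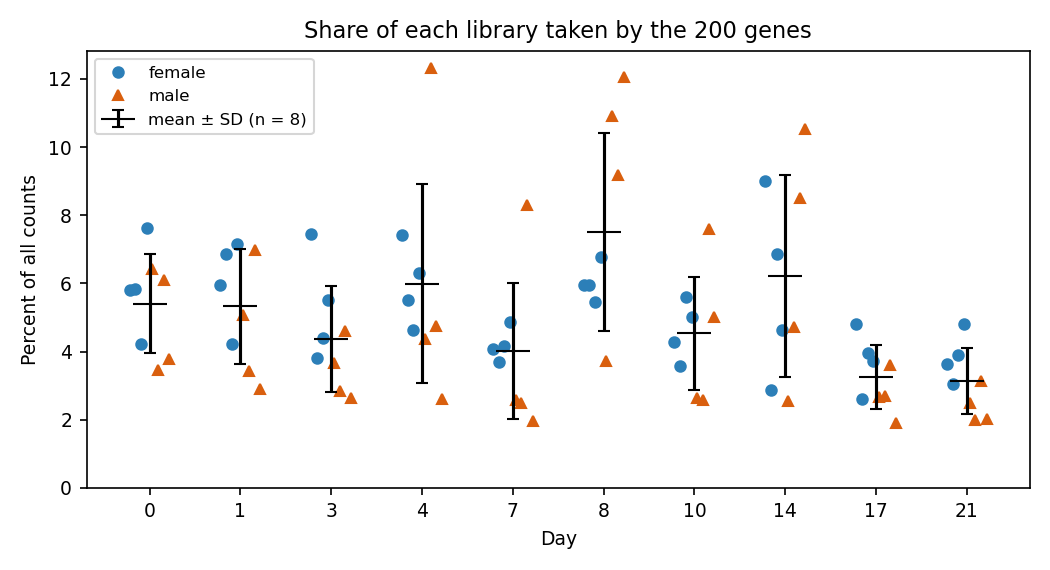
Percent of all counts that fell on the 200 genes (y axis, from 0) by day (x axis), with 1 point per library, circles for females and triangles for males, and the mean ± SD of 8. Means are 5.40% on day 0, 7.50% on day 8 and 3.13% on day 21.

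All 200 genes were below day 0 on day 7 in their mean over animals. Day 7 entered the choice only through the limit on mean CPM. Day 0 chose the genes by their course, and the choice favours genes that are high on day 0. Counts below day 0 are therefore partly fixed by the choice and are given as a description. On day 3 this held for 186 genes and on day 10 for 179. On day 8, 177 of the 200 lay above day 0, and for 169 of them all day 8 was the highest of the 10 days. Day 14 separated the genes evenly, with 100 above and 100 below day 0. There 47 genes stood at 0.4 or more above it and 37 at 0.4 or more below it, in a range of -1.11 to 2.02. The full alternation, below day 0 on days 3, 7 and 10 and above it on days 4 and 8, was found in 103 genes, and 17 genes lay below day 0 on all 6 days between day 1 and day 17. Of all kept genes, for which day 0 made no such choice, 49.8% to 53.3% lay below day 0 on these 6 days.

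**Figure D3:**
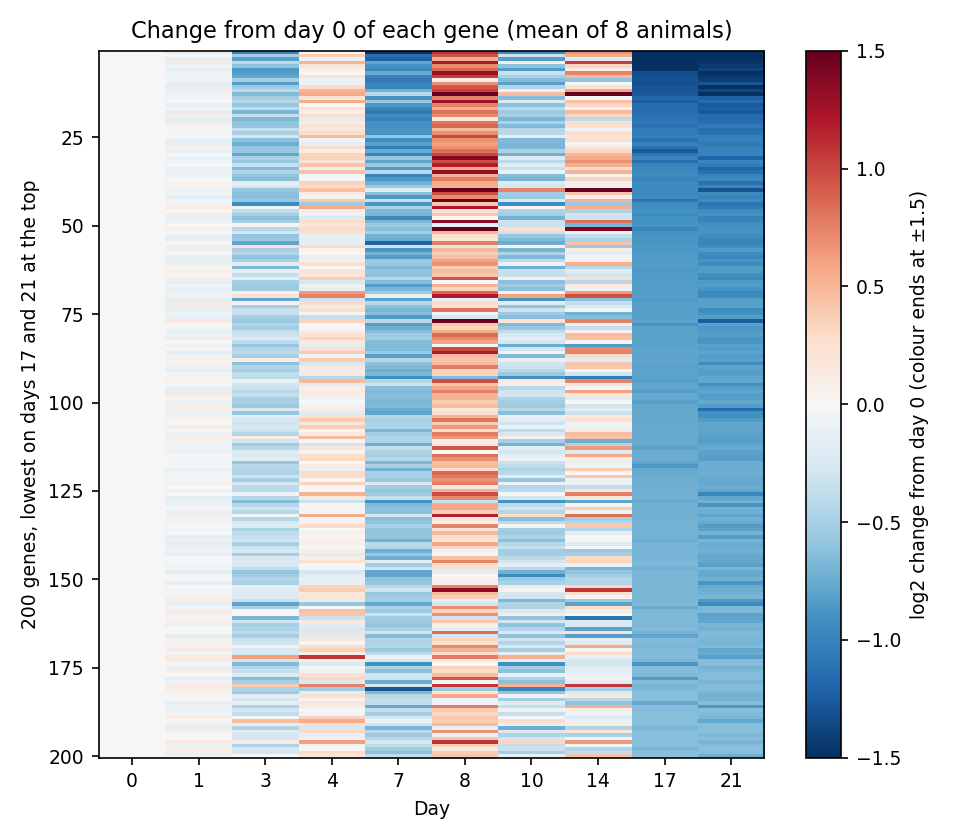
Mean log2 change from day 0 over 8 animals for each of the 200 genes (rows, ordered from the lowest on days 17 and 21 at the top) and each day (columns), in blue below and red above day 0. Day 7 is blue for all 200 genes, day 8 is red for 177, and day 14 is red for 100.

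Over the 48 libraries of days 3, 4, 7, 8, 10 and 14, the 200 genes varied together. These days entered the choice only through the limit on mean CPM. After removal of animal means, the correlation of a gene with the mean of the other 199 had a median of 0.94 and was at least 0.8 for 171 genes. Of the other 9739 kept genes, 1276 (13.1%) also correlated at 0.8 or more with the mean of the 200, and 710 (7.29%) at -0.8 or less. Pairs of the 200 genes correlated at a median of 0.87, with 90% of pairs between 0.15 and 0.96. For 9 genes the correlation with the rest was under 0.5, so a few of the 200 shared the low late values without the course between. These correlations are a description, since the libraries share animals and the scaling.

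Whether the low late values held in an animal that did not choose the genes was examined by repeating the choice in 7 animals and measuring the 8th. Each such list held 200 genes, of which 133 to 169 were among the 200. In the animals left out the mean stood at -0.79 ± 0.45 (SD, n = 8) on day 17 and -0.85 ± 0.39 on day 21, below day 0 in 8 of 8 animals on both days. On day 17 the values ran from -1.39 (animal 39100) to -0.20 (animal 39097). On day 21 they ran from -1.52 to -0.11 in the same 2 animals. Animal 39097 had 126 of 200 genes below its day 0 on day 21, and the other 7 animals had 193 to 200, whereas 46.4% to 54.5% of all kept genes lay below it. Day 1 stood at -0.05 ± 0.30 in the animals left out, with 5 of 8 below day 0.

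Changes between days that entered the choice only through the limit on mean CPM were tested with edgeR. Each test used the 16 libraries of a pair of days, with animal as a block. A gene near that limit can have passed it through high values on the tested days. The lowest mean among the 200 genes was 5.02 CPM. The part of the limit in the counts of genes below was not tested. All 200 genes were among the 16054 genes tested, and a gene with a Benjamini-Hochberg adjusted p under 0.05 over all of them is said to have risen or fallen. Comparisons that share a day share its libraries.

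Values after the second dose, day 4 versus day 3, pointed upward without a single gene past the threshold. The median edgeR log2 fold change of the 200 genes was 0.47, against -0.01 for all genes tested, and 198 of the 200 values were positive. None of the 200 rose and none fell by edgeR, where 0% of all genes rose and 0.181% fell. At an unadjusted p under 0.05, 54 of them were higher and 0 lower (11% of all genes in either direction). DESeq2 called 1 higher and 0 lower (0.230% and 1.35% of all genes). Higher values in all 8 animals were found for 21 of the 200 genes, compared with 1.73% of kept genes. The mean of the 200 changed by 0.50 ± 0.80 (SD, n = 8), from -0.03 in animal 39104 through a median of 0.24 to 2.43 in animal 39102. Animal 39102 stood apart in this step, while 39104 was the only animal that was not higher. Without both, the change was 0.27 ± 0.18 (n = 6) and 23 of the 200 rose (0.691% of all genes). Without animal 39102 alone, 7 rose (0.255%).

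Fold changes from day 4 to day 7 were all below 0, and few of them passed the test. The median log2 fold change was -0.73 (0.03 for all genes), all 200 were negative, and 12 of the 200 fell and 0 rose, where 0.885% of all genes fell and 2.19% rose. The 12 fell by 0.44 to 1.31 on the log2 scale (SE 0.11 to 0.26, edgeR adjusted p = 0.0067 to 0.0498). At an unadjusted p under 0.05, 139 were lower and 0 higher (19.2% of all genes in either direction). DESeq2 called 67 lower and 0 higher (4.05% and 5.46% of all genes). Lower values in all 8 animals were found for 22 of the 200 genes, compared with 3.57% of kept genes. In animal 39103 the mean of the 200 was 0.64 higher on day 7 than on day 4, while the other 7 animals changed by -2.66 to -0.27. On omission of animal 39103, 71 fell (3.16% of all genes), and on omission of 39102, 30 (1.69%). On omission of 39097 or 39098, 5 fell (0.529% and 0.716% of all genes). On that of 39090, 39095, 39100 or 39104, 2 fell (0.262%, 0.311%, 0.181% and 0.405%). No gene of the 200 fell in the fit without the animal block (0.0997%).

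The largest change among the 6 pairs of days followed the third dose. From day 7 to day 8 the median log2 fold change of the 200 genes was 1.09 (-0.06 for all genes), and all 200 values were positive, up to 2.76. By edgeR 94 of the 200 genes rose and none fell, where 6.0% of all genes rose and 7.77% fell. Unadjusted p values under 0.05 were found for 192 higher genes and 0 lower (36.7% of all genes in either direction). The 94 rose by 0.46 to 1.93 (SE 0.09 to 0.46, adjusted p = 0.0134 to 0.0498), 54 of them by more than 1 on the log2 scale, and 84 in 8 of 8 animals. Higher values in all 8 animals were found for 144 of the 200 genes, compared with 12.9% of kept genes. The mean of the 200 changed by 1.15 ± 1.01 (SD, n = 8), from 0.24 in animal 39103 through a median of 0.74 to 3.07 in animal 39104. Genes that missed the threshold had no smaller changes. The median was 1.26 with a median SE of 0.40 in these 106, and 1.07 with a median SE of 0.29 in the 94.

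Counts of genes passing the test on day 8 hung on single animals, and adjusted p values lay close under the threshold. On omission of animal 39095, 1 gene of the 200 rose, on that of 39098, 2, and on that of 39102, 4. On omission of 39090, 11 rose (0.804%), on that of 39100, 13 (0.978%), and on that of 39097, 40 (3.18%). With animal 39103 omitted 140 rose (8.13%), and with 39104 omitted 96 (4.52%). Over all genes the share that rose in these 8 fits ran from 0.0810% (without 39095) to 8.13% (without 39103). Without both 39102 and 39104, the mean change of the 6 other animals was 0.62 ± 0.23, between day 7 and day 8. In that fit 177 of the 200 rose (8.80% of all genes), and the median log2 fold change of all 200 was 0.63. For animal 39095 the day 7 library tag differs from all others, and tag and animal cannot be told apart. Among the 4 animals without a library of more than 40 M counts, 183 of the 200 rose (11.4% of all genes). That fit left out 39097, 39102, 39103 and 39104, so it is not separate from the fit without 39102 and 39104. Without the animal block 41 rose (1.48%), and DESeq2 called 188 higher and 0 lower (15.7% and 12.6% of all genes).

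**Figure D4:**
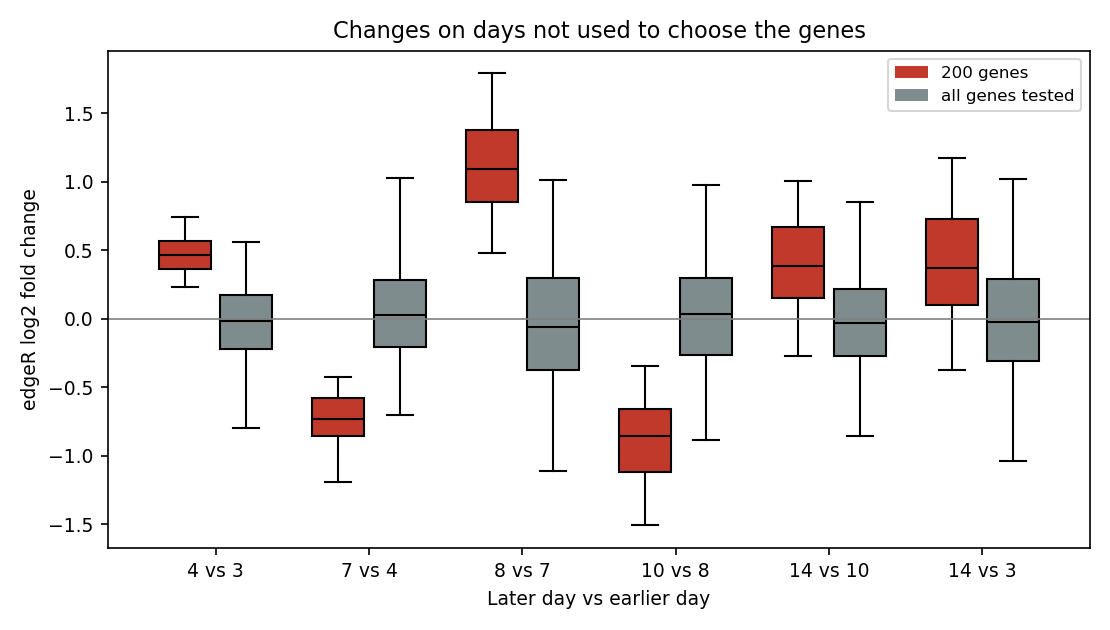
Log2 fold changes by edgeR (y axis) in the 6 comparisons of days tested (x axis). The 200 genes are in red and all 16054 genes tested in grey. Boxes are quartiles with the median, and whiskers reach from the 5th to the 95th percentile of genes. The medians of the 200 genes are 0.47, -0.73, 1.09, -0.86, 0.39 and 0.37 from left to right.

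Values were lower again on day 10. From day 8 to day 10 the median log2 fold change was -0.86 (0.04 for all genes), with 199 of the 200 values negative. By edgeR 107 of the 200 genes fell and none rose, where 5.51% of all genes fell and 5.64% rose. Unadjusted p values under 0.05 were found for 181 lower genes and 0 higher (30.8% of all genes in either direction). DESeq2 called 171 lower and 0 higher (12.3% and 9.59% of all genes). The 107 fell by 0.47 to 1.61 (SE 0.10 to 0.42, adjusted p = 0.0138 to 0.0497). Of the 94 genes that rose on day 8, 76 were among these 107, and 75 of the 200 genes passed in neither comparison, which share the day 8 libraries. Lower values in all 8 animals were found for 80 of the 200, compared with 8.53% of kept genes. Averaged over the 200 genes the change was -0.90 ± 0.74 (SD, n = 8), and day 10 was lower in 8 of 8 animals, from -2.30 in animal 39102 to -0.06 in animal 39097. On omission of animal 39095, 3 fell (0.131% of all genes), on that of 39098, 13 (0.822%), and on that of 39104, 20 (1.12%). On omission of 39100, 37 fell (2.06%), on that of 39090, 42 (2.30%), and in the fit without the block, 8 (0.498%). The count was 105 without both 39102 and 39104 (3.81% of all genes), with a mean change of -0.53 ± 0.29 in the other 6. Within the 5 animals whose day 8 and day 10 libraries share a tag, 108 fell (5.09% of all genes).

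Day 14 was the day on which animals parted. Every animal carried a different tag on day 10 and day 14, so no pair of libraries in this comparison shared a tag. The part of the tag in these changes was not tested. From day 10 to day 14 the median log2 fold change was 0.39 (-0.03 for all genes) and 171 of 200 values were positive. None of the 200 rose or fell by edgeR, where 0.891% of all genes rose and 0.990% fell. At an unadjusted p under 0.05, 67 were higher and 7 lower (21.9% of all genes in either direction). DESeq2 called 48 higher and 2 lower (7.20% and 4.35% of all genes). Day 14 means of the 200 were higher by 1.14, 1.03 and 1.25 in animals 39090, 39102 and 39104, while the other 5 animals changed by -0.38 to 0.28. Leaving out animal 39095 gave 5 of the 200 higher (1.49% of all genes). Leaving out animal 39097 gave 4 higher and 3 lower, which is 2% and 1.5% of the 200 beside 2.24% and 2.09% of all genes.

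Between day 3 and day 14, the first and last of the days tested, the group showed no common direction that passed the test. The median log2 fold change was 0.37 (-0.02 for all genes). No gene of the 200 rose and 1 fell, by 0.67 (SE 0.10, edgeR adjusted p = 0.0047) in 8 of 8 animals, where 3.51% of all genes rose and 3.33% fell. At an unadjusted p under 0.05, 34 were higher and 6 lower, together 20% of the 200 beside 25.9% of all genes. DESeq2 called 18 higher and 3 lower, 9% and 1.5% beside 9.42% and 7.57% of all genes. These shares were near or below those of all genes. Averaged over the 200 genes the change was 0.43 ± 0.90 (SD, n = 8), with 5 animals higher and 3 lower, and 0.07 ± 0.57 in the 6 animals other than 39102 and 39104. Without animal 39097 the genes that fell numbered 4, without 39090 they numbered 2, and without 39104 a single gene rose, all shares below those of all genes in the same fits (2.42%, 1.86% and 3.55%).

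Day 14 values differed between tags, with some overlap. The 3 day 14 libraries with the common tag, from males 39102, 39103 and 39104, stood 0.41 to 1.61 above their own day 0. The 5 with the other tag, from all 4 females and male 39100, stood between -1.45 and 0.69, with a median of -0.79. Within the 3 animals sharing a tag on days 3 and 14, 74 of the 200 genes rose and 2 fell (3.65% and 1.14% of all genes). Tag and animals cannot be told apart on this day. On day 10 the tags divide the same way in reverse. The 3 males with the other tag stood at -0.48 to 0.36, inside the -1.40 to 0.39 of the 5 with the common tag.

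From day 14 to day 17 the mean of the 200 genes changed by -0.89 ± 0.82 (SD, n = 8) and was lower in 7 of 8 animals, with changes from -2.57 in animal 39104 to 0.05 in animal 39100. Some animals stood near their day 17 level earlier, though not always steadily. Animal 39100 stood between -1.47 and -1.40 on days 7, 10, 14 and 17, but at -0.80 on day 8. Animal 39095 was at -1.13 on day 14 and -1.28 on day 17. Animal 39104 was at -1.03 on day 7 and at 2.04 on day 8. From day 17 to day 21 the mean of the 200 genes changed by -0.05 ± 0.29, with 3 animals higher and 5 lower. The lowest of the 10 day means fell on day 17 or 21 for 181 of the 200 genes and on day 7 for 10. Since days 17 and 21 chose the genes, these values carry no test. At the edge of the group, the last genes inside stood at a larger late difference of -0.6306 and -0.6303 and the first outside at -0.6300 and -0.6294, so the limit to the other 390 genes is arbitrary.

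Doses could be set side by side only in part, because the day 1 value of the first dose was fixed by the choice. The mean change in 24 h was 0.50 ± 0.80 after 10 µg/kg and 1.15 ± 1.01 after 15 µg/kg, and -0.03 ± 0.28 after 5 µg/kg. A direct test, of the third response minus the second, in 1 edgeR fit of 32 libraries, gave a median difference of 0.65 for the 200 genes (0.00 for all genes). No gene of the 200 passed in either direction, and 0% of all genes did. At an unadjusted p under 0.05, 11 of the 200 had a larger and 0 a smaller response to the third dose, 5.5% beside 6.43% of all genes in either direction. DESeq2 called 0 of the 200 in either direction (0% of all genes larger and 0.00623% smaller). The median difference was 0.25 without animal 39104 and 0.34 without animals 39102 and 39104. The size of a dose, its place in the order and the time elapsed cannot be told apart here, since all 3 increase together.

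Females and males were compared on counts of days 3 to 14 summed per animal. Raw counts were summed, so deeper libraries weighed more. Libraries over 40 M counts were those of day 8 in males 39102, 39103 and 39104 and of day 7 in female 39097. On day 10 they were those of females 39090, 39097 and 39098 and male 39100. No gene of the 200 passed with edgeR, where 0.106% of all genes were higher in males and 0.0374% lower. At an unadjusted p under 0.05, 8 were higher and 7 lower in males, together 7.5% of the 200 beside 7.87% of all genes. DESeq2 called 2 higher and 3 lower, 1% and 1.5% beside 0.623% and 1.66% of all genes. These shares were near those of all genes. The median log2 fold change was 0.05, close to the 0.01 of all genes. What the weighting by depth did to this value was not tested. With each library weighted alike, the mean level of the 200 genes was lower in males on days 3, 4, 7 and 10. It was 1.06 in males and 1.77 in females on day 3. On days 8 and 14 it was higher in males, at 2.51 and 2.14 in females on day 8. Without male 39100, 14 of the 200 were higher in males (0.878% of all genes). Relative to their own day 0, the mean stood at -0.76 ± 0.54 in females (SD, n = 4) and -0.92 ± 0.41 in males on day 17, and at -0.69 ± 0.37 and -1.09 ± 0.29 on day 21. On day 8 males were the higher group, at 0.89 ± 1.32 and 0.17 ± 0.19 in females, and on day 14 likewise, at 0.28 ± 1.27 and -0.18 ± 0.91. The groups overlapped on each of these 4 days.

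ENSMFAG00000036514 ranked first in the choice, by the larger of its 2 late differences, though it was the lowest gene on neither late day. Its level on day 0 ran from 38.1 through a median of 117 to 142 CPM. Medians were 99.97 CPM (day 1), 50.5 (day 3), 86.9 (day 4), 45.8 (day 7) and 143 (day 8). They were 60.2 CPM (day 10) and 107 (day 14), then 37.4 on day 17 with a range of 8.46 to 72.4, and 40.8 on day 21 with a range of 9.36 to 77.6. Late libraries were low in comparison with day 0, but the ranges overlapped. From day 7 to day 8 it was higher by 2.29 on the edgeR log2 scale (SE 0.82, adjusted p = 0.078, range over the alternatives 1.6e-07 to 0.15), in 7 of 8 animals, and so missed the threshold.

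ENSMFAG00000038992 ranked second in the choice, by the same larger late difference. Its median was 159 CPM on day 0 (range 54.8 to 250) and 161 CPM on day 1. It was 72.6 CPM on day 7, 209 on day 8 (range 69 to 494) and 150 on day 14 (range 44.9 to 682). On days 17 and 21 it was 40.1 and 53.3 CPM, lower than day 0 in 8 of 8 animals. The day 8 versus day 7 difference of 1.96 (SE 0.63, adjusted p = 0.059 with edgeR, range over the alternatives 5.6e-06 to 0.12) missed the threshold, with 7 of 8 animals higher. With DESeq2, and without animals 39102 and 39104, both of these genes passed.

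ENSMFAG00000028569 had the largest increase on day 8 among genes of the group that passed the test and were higher in all 8 animals. Its level on day 7 ran from 7.76 through a median of 35.8 to 96.9 CPM, and on day 8 from 47.9 through 115 to 168 CPM. It rose by 1.93 (SE 0.46, edgeR adjusted p = 0.031, range over the alternatives 4.8e-05 to 0.075). From day 8 to day 10 it fell by 1.51 (SE 0.42, adjusted p = 0.044, range over the alternatives 0.00067 to 0.27), in 6 of 8 animals. Animal 39098 held the highest library on day 0, at 216 CPM where the next had 80.2, and on day 21, at 209 CPM where the next had 43.9.

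ENSMFAG00000040506 followed with an increase of 1.62 on day 8 (SE 0.46, edgeR adjusted p = 0.046, range over the alternatives 1.5e-06 to 0.0997). Its level on day 7 ran from 218 through a median of 874 to 1897 CPM, and on day 8 from 977 through 1984 to 2581 CPM. It fell by 1.24 from day 8 to day 10 (SE 0.31, adjusted p = 0.032, range over the alternatives 0.00027 to 0.089) in 7 of 8 animals. On days 17 and 21 its medians were 654 and 738 CPM, compared with 1287 on day 0. Both of these genes were chosen for an adjusted p under 0.05 and 1 direction on day 8, so their day 8 values restate that choice. All 4 genes moved with the group, with a correlation of 0.89 to 0.98 with the other 199 over the 48 libraries. For these last 2 genes the day 8 call was lost when animal 39090, 39095, 39098, 39100 or 39102 was omitted (edgeR adjusted p = 0.057 to 0.0997), and that of ENSMFAG00000040506 also without 39097 (0.055) or without the block (0.063). Day 10 calls of both were lost without the block and on omission of animal 39090, 39095, 39098, 39100 or 39104 (0.059 to 0.104 on omission, 0.089 and 0.27 without the block). That of ENSMFAG00000028569 was also lost in 1 fit of 48 libraries (0.072) and without animals 39102 and 39104 (0.056).

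**Figure D5:**
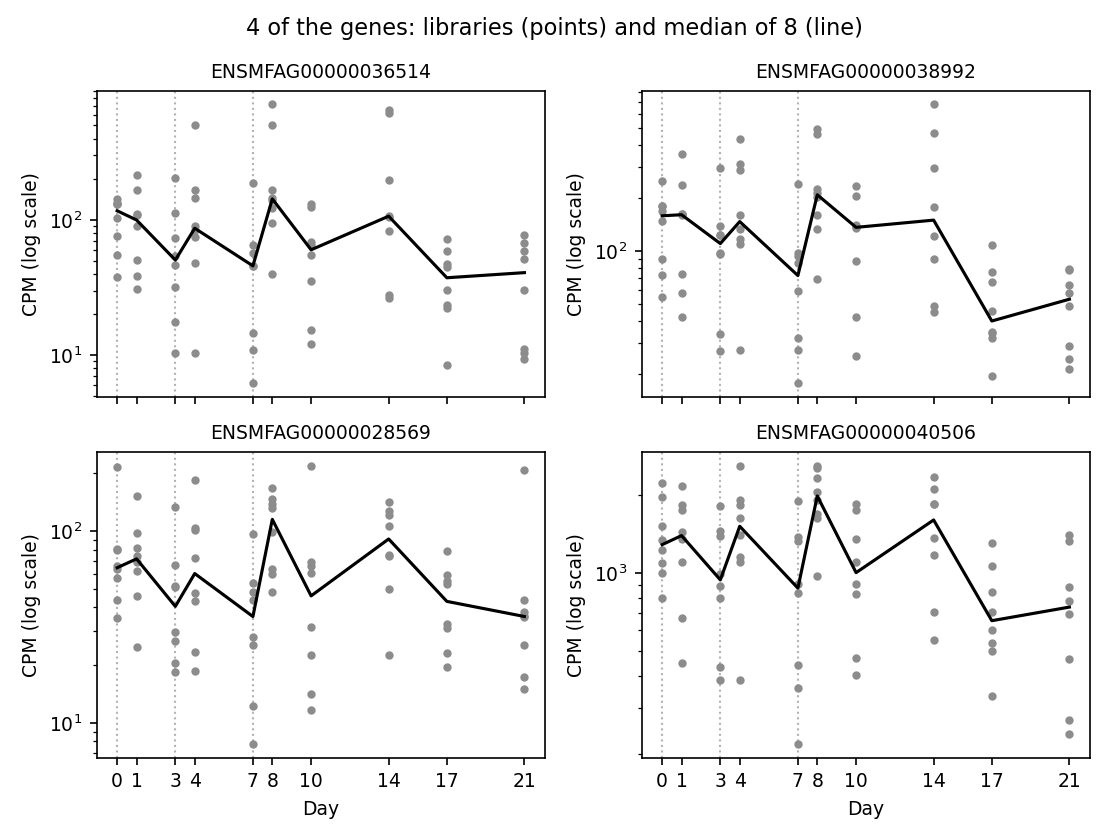
Level in CPM (y axis, log scale) by day (x axis) of 4 genes of the group, with 1 point per library and the median of 8 libraries as a line. Median levels are higher on day 8 than on day 7 in each panel, at 143 against 45.8 CPM for the first gene and 1984 against 874 CPM for the last.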

How the data were processed

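The authors deposited 2 tables of raw counts by gene for the same 80 libraries, without normalization. Blood was collected in PAXgene tubes, per the series' design text. It was extracted with RNAdvance Blood, and KAPA HyperPrep mRNA libraries followed, per the labels' protocols. The strand setting, build, aligner and counter were not given in the sources used here, so reads shared by near-identical or overlapping genes could not be traced. The second table, under other identifiers, was used only to repeat the choice of genes.

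The members, the comparisons and the gene lists were chosen with earlier results of these data known. Marker lists need gene names and could not be applied. The 4 identifiers printed are the 2 with the lowest larger late difference, and the 2 with the largest log2 fold change from day 7 to day 8 that had an adjusted p under 0.05 and were higher in 8 of 8 animals. The test of the third response minus the second and the fits without animals 39102 and 39104 were chosen after seeing the data.

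Genes were filtered with filterByExpr by day (16054 of 38550 kept), scaled by TMM over 80 libraries and tested with edgeR 4.0.16 (glmQLFit, glmQLFTest) in R 4.3.3, with Benjamini-Hochberg adjustment over all genes. DESeq2 1.42.0, other scalings, no filter, no animal block, 1 fit of 48 libraries and omission of animals were alternatives. The fits were tested on simulated data. Animal numbers in the labels give the pairing. Deviations from day means correlated at a median of 0.58 within an animal (lowest -0.44) and -0.08 between animals. No libraries of a day agreed within counting noise (smallest chi-square per degree of freedom 29.9). With 1 library per animal and day, the spread between animals and that of library preparation cannot be told apart. What limits the precision was not tested.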

Additional observations from a re-analysis of the deposited data

Results flagged for a closer look

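Within each day the 8 libraries were checked for 1 that stood apart by Dixon's test at the 95% level, for the mean of the 200 genes, its changes and the 4 identifiers. Of 71 such groups, 10 had an outlying library, in each case the highest. A rate of about 1 in 20 would hold for independent groups of normally distributed values. These groups share libraries, and the 4 identifiers were checked in CPM without a log, so the number flagged cannot be set against that rate. Animal 39102 on day 4 stood 2.11 above its own day 0 for the mean of the 200 genes (next animal 0.55), and its change from day 3 to day 4 was 2.43 (next 0.59). The same library held 501 CPM of ENSMFAG00000036514 (next 168). On day 7 animal 39103 held 186 CPM of ENSMFAG00000036514 (next 65.3) and 241 CPM of ENSMFAG00000038992 (next 97.4). On day 3 animal 39090 held 297 CPM of ENSMFAG00000038992 (next 139). ENSMFAG00000028569 was highest in animal 39098 on day 0 (216 CPM, next 80.2), day 3 (133 CPM, next 66.4) and day 21 (209 CPM, next 43.9), and in animal 39103 on day 10 (219 CPM, next 69.2).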

How the results depend on the processing

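The sign of the median change of the 200 genes was the same under every alternative run in the 6 comparisons of days and in the third response minus the second, but not for males versus females (8 of 12 alternatives). How many genes passed the test was less stable, and the cause was not tested. Library totals in place of TMM shifted the median of all genes by up to -0.43 (day 8 versus 7). Percentages in brackets here are shares of all genes in the same fit. Library totals gave 7 genes lower on day 7 versus 4 (0.374%) and 1 higher on day 10 versus 8 (15.6%). They gave 2 higher and 1 lower on day 14 versus 10 (0.704% and 3.30%). Day 14 versus 3 had 1 higher and 14 lower (1.49% and 14.0%), and these 14 were 7% of the 200, below the share of all genes. Without the low-count filter, 20 fell on day 7 versus 4 (0.759%) and 142 rose on day 8 versus 7 (4.31%). There 13 rose and 1 fell on day 14 versus 10 (1.26% and 1.12%), and 1 rose and 2 fell on day 14 versus 3 (1.94% and 1.71%). DESeq2 called 1 higher on day 4 versus 3 (0.230%), 67 lower on day 7 versus 4 (4.05%) and 188 higher on day 8 versus 7 (15.7%). It called 171 lower on day 10 versus 8 (12.3%), and 48 higher and 2 lower on day 14 versus 10 (7.20% and 4.35%). On day 14 versus 3 it called 18 higher and 3 lower (9.42% and 7.57%), and in males 2 higher and 3 lower (0.623% and 1.66%). Without the pairing by animal (no replicate block), 0 fell on day 7 versus 4 (0.0997%) and 41 rose on day 8 versus 7 (1.48%). In that setting 8 fell on day 10 versus 8 (0.498%), and 2 rose and 0 fell on day 14 versus 3 (3.23% and 2.79%). In 1 fit of 48 libraries, 31 fell on day 7 versus 4 (1.89%) and 177 rose on day 8 versus 7 (13.3%). That fit had 1 rise on day 14 versus 10 (3.59%), and 5 rose and 3 fell on day 14 versus 3 (9.94% and 9.65%). Without animals with a library over 40 M counts, 5 fell on day 7 versus 4 (0.529%) and 183 rose on day 8 versus 7 (11.4%). With the common tag only, 2 fell on day 7 versus 4 (0.311%) and 1 rose on day 8 versus 7 (0.0810%). On day 14 versus 3, 74 rose and 2 fell (3.65% and 1.14%). Without animals 39102 and 39104, 23 rose on day 4 versus 3 (0.691%) and 6 fell on day 7 versus 4 (0.598%). Without these 2 animals 177 rose on day 8 versus 7 (8.80%), and 3 fell on day 14 versus 3 (0.797%). Fits that needed 3 animals without such libraries were not run where fewer remained, as for day 10 versus 8 by depth.

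Leaving out 1 animal gave 0 to 7 genes higher on day 4 versus 3 (0% to 0.255% of all genes). It gave 2 to 71 lower on day 7 versus 4 (0.181% to 3.16%) and 1 to 140 higher on day 8 versus 7 (0.0810% to 8.13%). Day 10 versus 8 had 3 to 147 lower (0.131% to 8.14%). Day 14 versus 10 had 0 to 5 higher (0.0934% to 2.24%) and 0 to 3 lower (0.106% to 2.09%). Day 14 versus 3 had 0 to 1 higher (0.928% to 3.55%) and 1 to 4 lower (1.18% to 2.95%). In males 0 to 14 were higher (0.0872% to 0.878%). The difference between males and females changed sign for ENSMFAG00000028569 (0.08, or -0.06 without animal 39090 and -0.20 without 39103, range -0.20 to 0.43 with 1 animal left out) and for ENSMFAG00000040506 (-0.14, or 0.11 without 39100, range -0.36 to 0.11). The thresholds of the choice were met by 590 genes, by 367 without centring, 584 with TMM-scaled CPM, 608 with a pseudocount of 0.25 and 767 with a mean CPM of at least 1. Of the 200 genes, 196, 192, 197 and 197 still met them.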

Other observations

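The 200 genes were part of a wider set with the same course. Over the 48 libraries of days 3 to 14, with animal means removed, 1276 of the other 9739 kept genes (13.1%) correlated at 0.8 or more with the mean of the 200, and 710 (7.29%) at -0.8 or less. These are descriptions over libraries that share animals and scaling. A total of 1129 kept genes lay at -0.4 or below on both late days. Of these, 394 were lower than day 0 by 0.15 or more on day 1 and 145 were higher by 0.15 or more.

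The choice was repeated on the second table, which counts the same libraries and is therefore no independent measurement. There 555 of 9953 kept genes met the thresholds. The mean of the 200 lowest relative to day 0 was -0.62 on day 7 (also -0.62 in the main table), and 0.52 on day 8 (0.53). Day 17 gave -0.83 (-0.84) and day 21 gave -0.88 (-0.89).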
